A study of Mus musculus with 14 samples.

Results

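The 45 genes described here are Wnt ligands, their receptors, secreted inhibitors, cytoplasmic transducers, nuclear factors and targets. They were chosen by gene symbol and not by a rule on their values, with earlier results of these data known. Of these, 43 stood among the 16124 genes of the expression table, and Lef1 and Notum were not analysed here. RNA was sequenced from mammary epithelial cells (MECs) of 7 wild-type (WT) and 7 Usp22 OE/OE nulliparous females aged 3.5 months, matched as littermates in pairs numbered 1, 3, 4, 5, 6, 7 and 8, with 1 library per mouse. OE/OE mice are homozygous for a tagged mouse Usp22 cDNA placed in the ROSA26 locus behind the CAGGS promoter; a stop cassette had been removed by Zp3-Cre in the female germ line, so the transgene is on in every tissue, the stroma included. Usp22 encodes the deubiquitinase of the SAGA coactivator complex. WT littermates carried no Usp22 transgene as far as the labels say. The epithelial cells were prepared by collagenase digestion and pulse centrifugation of glands 2, 3 and 4, with no sorting step described.

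Wnt ligands are lipid-modified proteins that bind a frizzled receptor together with LRP5 or LRP6. Binding recruits dishevelled and stalls the destruction complex of axin, APC and kinases, so that β-catenin accumulates and joins TCF/LEF factors on target genes. R-spondins, through LGR receptors, spare frizzled from the ubiquitin ligases RNF43 and ZNRF3, while SFRP and DKK proteins hold the signal down from outside the cell. In the mammary gland the pathway is known for its part in the maintenance of basal stem cells and in hormone-driven side branching, and some ligands are made by luminal cells and some by the stroma.

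Usp22 itself had 3500.0 to 5379.7 normalized counts in the WT mice and 74948 to 144288 in the OE/OE mice. The libraries held 20125106 to 41835978 fragments counted on genes. A normalized count is the number of fragments on a gene after division by the size factor of its library. Markers of epithelial cells were abundant in every library, the 12 pan-epithelial markers summing to 364198 to 597402 normalized counts in WT and 397470 to 692259 in OE/OE. The 15 fibroblast markers were also well above 0, summing to 132393 to 266537 and 96522 to 200927, so stromal transcripts were present in every library. Both the OE/OE mouse of pair 4 and the WT mouse of pair 1 stood apart from their groups. The former had the lowest endothelial score, the mean log2 level of 13 markers, at 10.3 where the other mice had 11.7 or more. It also had the highest score of 12 proliferation genes, at 10.1, where the other mice ran from 5.02, in its WT littermate, to 9.04. The latter had the highest lymphocyte score, 7.62, against 5.83 or less in the others. For the members themselves, the extremes of pair 1 lay mainly in its OE/OE mouse. Of all mice, that animal was lowest for 8 members and highest for 4. Its WT littermate was lowest for 1 and highest for 0. The endothelial score of the same OE/OE animal, 12.7, was also the top one of all mice. Members whose call changed without pair 1, without pair 4 or without both are given with that result.

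Across the cascade, levels per kilobase of exon (normalized counts divided by the length of all annotated exons of the gene) ran over 3 orders of magnitude, as the plot of levels by mouse shows. Ctnnb1, encoding β-catenin, had the highest level at 6168 per kb and the narrowest range for its level, 5834 to 6666 over the 14 mice. Procr, a cell surface receptor of protein C that marks a basal stem cell population and is known as a Wnt target, came next with 2593 per kb, in a range of 910.0 to 4281. The co-receptor Lrp5 had 1222 and the scaffold Axin1 976 per kb. At the other end, Rspo3, a secreted R-spondin, had 4.70 per kb and the ligand Wnt2b 8.92. In counts, Rspo3 lay between 4.07 and 29.0 in WT, close to the limit of what these libraries resolve.

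**Figure D1:**
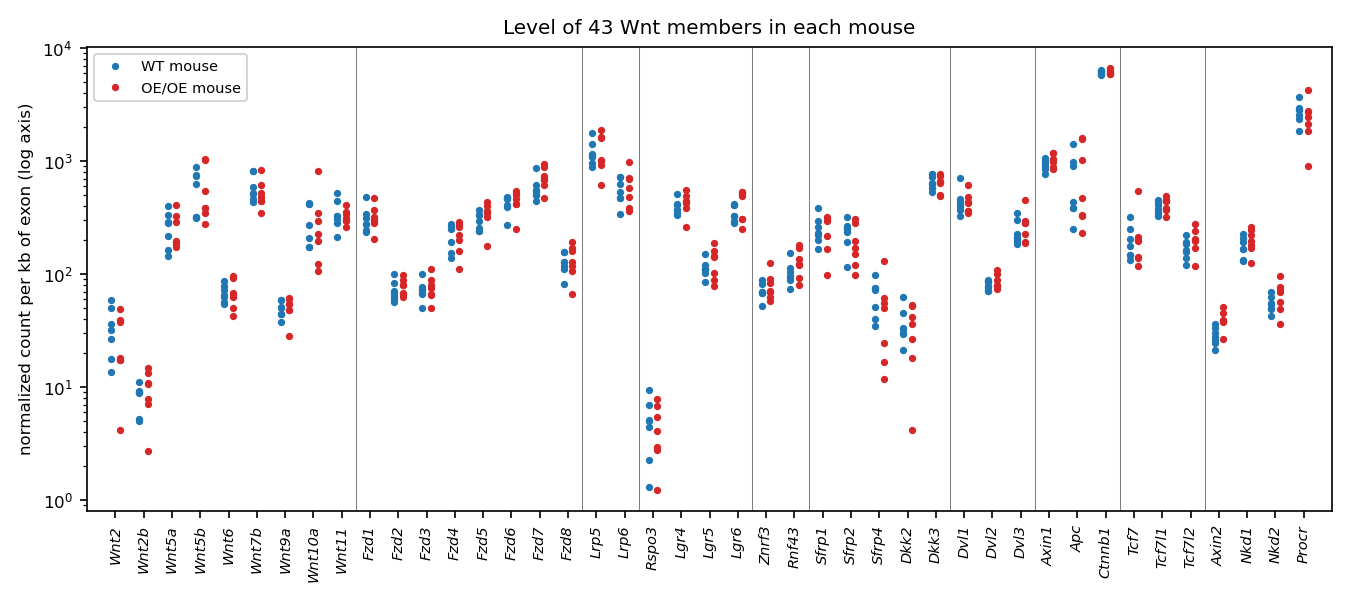
Level of the 43 Wnt members in each mouse, as normalized counts per kb of exon on a log axis, with WT mice in blue and OE/OE mice in red and vertical lines between role groups. Ctnnb1 is the highest and the most even at 5834 to 6666 per kb, and Rspo3 is the lowest at 1.24 to 9.38 per kb.

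Each family was led by 1 or 2 members. Among the 9 ligands, Wnt5b (569 per kb), a ligand usually described as acting without β-catenin, and Wnt7b (560.5 per kb), a luminal ligand, had means that differ by less than their spread between mice. Wnt5b was the highest ligand in 5 of the 14 mice, Wnt7b in 8 and Wnt5a in 1. Wnt11, Wnt10a and Wnt5a followed with 336, 300.2 and 258 per kb, in ranges that overlap. Of the frizzled receptors Fzd7 was the highest in 12 of 14 mice and took 27.6% ± 6.55 of the frizzled total per kb in WT and 30.8% ± 5.38 in OE/OE mice (± SD, n = 7). Fzd6, Fzd5 and Fzd1 came next at 434, 319 and 315 per kb, the last 2 of them indistinguishable within their spread. Lrp5 exceeded Lrp6 in 14 of 14 mice. Lgr4 was the highest LGR receptor in 10 mice and Lgr6 in 4, while Lgr5, known as a stem cell marker, had 121 per kb. Dvl1 led the dishevelled adaptors in 14 of 14 mice, and Tcf7l1, known mainly as a repressor of the TCF family, led the 3 TCF genes in 13. Sfrp1 and Sfrp2 were the highest SFRP gene in 7 mice each. Axin1 made up 97.0% of the axin total per kb in WT and 96.2% in OE/OE, so that Axin2 was a minor part of it in every mouse.

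The comparison of OE/OE with WT asks whether Usp22 overexpression changes the cascade. In limma, on log2(normalized count + 1) and with each pair of littermates as a block and a call at an unadjusted p of 0.05 or less, 4 of the 43 members were called, against 3.81% of all 16124 genes (9.30% of the members). All 4 were higher in OE/OE, a direction in which 1.95% of all genes were called. They were Axin2, Rnf43, Tcf7l2 and Fzd7, which are a feedback inhibitor, a receptor-turnover ligase, a TCF factor and a receptor. No member passed Benjamini-Hochberg adjustment over all genes, the lowest adjusted p of a member being 1.00, while 2 of all genes did. The groups overlapped for all 43 members, and over all genes 0.0434% had groups that did not overlap. The median log2 fold change of the members was 0.051, with 26 above 0 and 17 below, and that of all genes was -0.0015. DESeq2 and edgeR on the recovered fragments called the same 4 members. They called 3.88% (DESeq2), 3.70% (edgeR with TMM) and 3.71% (edgeR with the deposited size factors) of all genes. No test was applied to the members as a group. Without pair 1 there were 9 called members and 7.42% of all genes. Without pair 4 there were 6 and 8.47% of all genes, and without both pairs 10 and 11.2%.

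Axin2, which scaffolds the destruction complex and is widely used as a readout of β-catenin activity, had the largest log2 fold change of the 4. It is on chromosome 11, 108920349 to 108950783 (GRCm38, plus strand). It had 118 to 201 (median 154) normalized counts in WT and 146 to 279 (median 213) in OE/OE. Within pairs the OE/OE mouse had the higher value in each of the 7 pairs, although the groups overlap, with the OE/OE mouse of pair 4 below the WT mouse of pair 7. The mean was 158 ± 29.0 (SD) in WT mice and 218 ± 41.4 in OE/OE mice, n = 7 each. The log2 fold change was 0.46 ± 0.13 (SE) (limma, unadjusted p = 0.00672, adjusted p = 1.00). An exact permutation test that flips the sign of the 7 pair ratios gave a two-sided p of 0.0156, the lowest this number of pairs can reach. Axin2 was the only member to change the same way in all 7 pairs, which 1.51% of all genes did. The pair log2 ratios ran from 0.032 in pair 7 to 0.85 in pair 6. Genotype took 44.1% of the spread of its log2 level between mice, beside a median of 1.43% over all genes. The litter took 38.0%, beside a median of 73.9%. Its call was lost with the pan-epithelial marker score as a covariate (log2 fold change 0.38, limma unadjusted p = 0.102), in which fit 1.44% of all genes were called.

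Rnf43, the ubiquitin ligase that clears frizzled receptors from the membrane and is itself a Wnt target, lies on chromosome 11, 87662722 to 87735539. It had 487 to 1004 (median 637) normalized counts in WT and 523 to 1196 (median 812) in OE/OE, and the means were 677 ± 164 (SD) in WT mice and 849.8 ± 247 in OE/OE mice, n = 7 each. It was higher in 6 of 7 pairs, with pair 1 the exception, and the highest mouse of each group belonged to pair 5. The log2 fold change was 0.31 (SE 0.10, limma unadjusted p = 0.0151), and the two-sided exact sign-flip p was 0.0469. With the adipocyte, fibroblast or pan-epithelial marker score as a covariate the call was lost, at log2 fold changes of 0.17, 0.18 and 0.35. Its paralog Znrf3 had 409 to 698 (median 545) normalized counts in WT and 461 to 982 (median 561) in OE/OE. The log2 fold change of Znrf3 was 0.15 (SE 0.10), it was higher in 6 of 7 pairs, and it was not called.

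Fzd7, the leading frizzled receptor and one known from mammary stem cells, lies on chromosome 1, 59482424 to 59486955 and had 2027 to 3924 (median 2445) normalized counts in WT and 2124 to 4276 (median 3230.1) in OE/OE. The means were 2608 ± 629 (SD) in WT mice and 3264 ± 721 in OE/OE mice, n = 7 each. The OE/OE mouse was higher in 6 of 7 pairs and lower in pair 4, and pair 6 had the widest difference. Its log2 fold change was 0.32 (SE 0.13, limma unadjusted p = 0.0306), but the two-sided exact sign-flip p was 0.0781. Without pair 5, 6 or 8 the call was lost, the log2 fold change falling to 0.21 without pair 6. The call was also lost, at 0.27, when the gap between long and short genes in each library was a covariate.

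Tcf7l2, a TCF factor that binds β-catenin at target genes, lies on chromosome 19, 55741820 to 55933654 and had 1068 to 1941 (median 1445) normalized counts in WT and 1046 to 2425 (median 1755) in OE/OE. The means were 1482 ± 296 (SD) in WT mice and 1768 ± 439 in OE/OE mice, n = 7 each. Again 6 of 7 pairs were higher in OE/OE and pair 4 was lower, and pair 5 held the highest OE/OE mouse. The log2 fold change was 0.24 (SE 0.095, limma unadjusted p = 0.0321), with an exact sign-flip p (two-sided) of 0.0625. Leaving out pair 1, 5, 6 or 8 ended the call, with log2 fold changes between 0.19 and 0.23. The repressor Tcf7l1 was higher in 6 of 7 pairs too, by 0.10 on the log2 scale (SE 0.064), and was not called over all 7 pairs in limma (unadjusted p = 0.143). It was called without pair 4, at 0.14, and with the adipocyte score, at 0.17. It had 1297 to 1764 (median 1494) normalized counts in WT and 1264 to 1915 (median 1728) in OE/OE, and its two-sided exact sign-flip p was 0.0469.

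**Figure D2:**
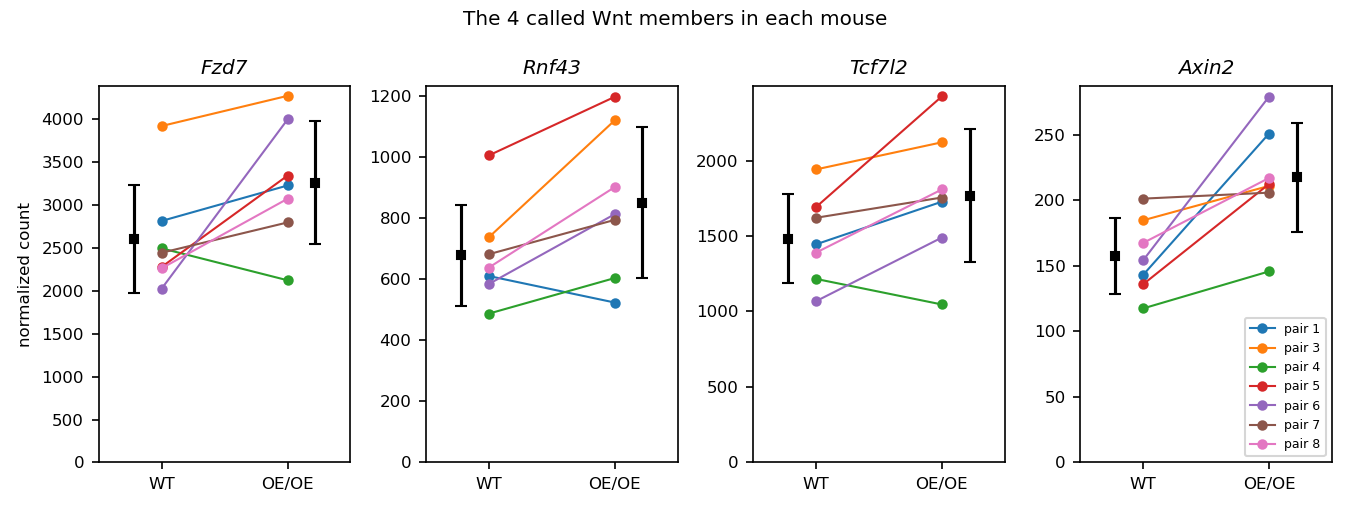
Normalized counts of Fzd7, Rnf43, Tcf7l2 and Axin2 in each mouse, with littermates joined by a line and black squares with bars for the mean and SD of each group (n = 7). Axin2 is higher in OE/OE in every pair, with means of 158 and 218, and each of the other 3 genes is lower in 1 pair.

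The promoters of the 4 called members are shown because these genes were called in the same direction. Each stretch is the 250 bases before the RefSeq gene start in GRCm38.p6, read on the plus strand, at chr11:108920099-108920348, chr11:87662837-87663086, chr1:59481897-59482146 and chr19:55741560-55741809 in the order printed. Wnt11, at chr7:98834862-98835111, is shown as the 1 member with a TCF motif in the window nearest to its annotated start, CTTTGAT on the opposite strand, which is in capitals.
Axin2: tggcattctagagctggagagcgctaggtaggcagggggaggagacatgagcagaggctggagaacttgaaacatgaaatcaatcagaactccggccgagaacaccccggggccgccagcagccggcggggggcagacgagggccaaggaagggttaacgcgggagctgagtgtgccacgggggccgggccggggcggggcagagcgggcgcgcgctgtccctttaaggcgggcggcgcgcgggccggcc
Rnf43: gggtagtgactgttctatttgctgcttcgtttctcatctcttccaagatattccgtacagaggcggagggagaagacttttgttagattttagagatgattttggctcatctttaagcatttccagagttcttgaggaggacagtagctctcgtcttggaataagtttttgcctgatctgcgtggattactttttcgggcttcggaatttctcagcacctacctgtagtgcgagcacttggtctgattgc
Fzd7: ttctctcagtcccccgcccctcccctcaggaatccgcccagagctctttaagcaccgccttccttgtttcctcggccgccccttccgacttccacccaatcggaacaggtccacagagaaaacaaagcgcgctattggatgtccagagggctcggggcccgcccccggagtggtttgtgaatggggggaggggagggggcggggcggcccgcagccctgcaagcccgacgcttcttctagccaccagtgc
Tcf7l2: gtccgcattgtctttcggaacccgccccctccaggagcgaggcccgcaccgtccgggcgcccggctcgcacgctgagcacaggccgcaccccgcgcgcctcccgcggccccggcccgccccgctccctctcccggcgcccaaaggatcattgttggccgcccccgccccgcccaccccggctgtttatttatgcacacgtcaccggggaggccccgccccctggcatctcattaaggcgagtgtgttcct
Wnt11: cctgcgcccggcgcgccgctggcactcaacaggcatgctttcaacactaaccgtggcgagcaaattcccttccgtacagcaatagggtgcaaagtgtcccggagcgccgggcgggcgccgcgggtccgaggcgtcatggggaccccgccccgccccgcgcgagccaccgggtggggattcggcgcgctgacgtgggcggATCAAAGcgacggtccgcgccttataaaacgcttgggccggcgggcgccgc
A window of 300 bases, the 250 printed and the 50 after the start, was searched on both strands for CTTTGAT and CTTTGAA, the letters that TCF/LEF factors are known to prefer. None of the 4 called members held either, and of the 33 windows that the RefSeq table gives for 26 members 2 did (6.06%), against 8.65% of all 32851 windows. They were the Wnt11 window above and a Wnt5b window that lies 94961 bases from the start of that gene in the annotation used for counting. This says only that these letters are not in these windows. The windows of Axin2 and Tcf7l2 were rich in G and C, at 70.0% each, and that of Rnf43 was not, at 46.7%, with a median over all windows of 52.7%. The RefSeq start of Rnf43 lies 365 bases after the start of the gene in the annotation used for counting, so its window is inside that gene. For Fzd7 the RefSeq start lies 277 bases before the annotated one.

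None of the 9 ligands was called. In log2 fold change 7 lay below 0 and 2 above. By size of the log2 fold change Wnt2 came first, followed by Wnt10a (-0.20) and Wnt7b. Wnt2 was among the least abundant ligands. Wnt7b was among the most abundant and had the smallest SD of the pair log2 ratios, 0.23. Wnt2, a stromal ligand of the gland, had 30.7 to 134 (median 72.5) normalized counts in WT and 9.42 to 112 (median 41.2) in OE/OE. Its log2 fold change was -0.51 ± 0.40 (SE), and the pairs ranged from -2.55 in pair 3 to 1.49 in pair 1. Without pair 1 it was called lower, at -0.85 on the log2 scale. Wnt2b, at 21.2 to 46.5 (median 38.1) normalized counts in WT and 11.5 to 61.7 (median 45.1) in OE/OE, had a log2 fold change of 0.11 (SE 0.21). Wnt7b was lower in 5 of 7 pairs with a log2 fold change of -0.17 (SE 0.088, limma unadjusted p = 0.0786), at means of 2904 ± 792 (SD) in WT mice and 2587 ± 783 in OE/OE mice, n = 7 each. It was called lower without pair 5, with the basal score as a covariate and with quantile normalization, at -0.23, -0.20 and -0.21. Wnt5b had 838 to 2357 (median 1666) normalized counts in WT and 742 to 2751 (median 1023) in OE/OE and a log2 fold change of -0.039 (SE 0.14). Wnt10a, a ligand of epithelial appendages, had 429 to 1043 (median 673) normalized counts in WT and 264 to 1999.7 (median 561) in OE/OE. Its extremes were both in OE/OE, the lowest in pair 1 and the highest in pair 4. Wnt5a, Wnt6, Wnt9a and Wnt11 had log2 fold changes of -0.038, -0.033, 0.020 and -0.040, all smaller than their standard errors.

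Among the 8 frizzled receptors 7 had log2 fold changes above 0, and Fzd7 was the only one called. Fzd5, with 1665 to 2554 (median 2046) normalized counts in WT and 1224 to 2989.9 (median 2431) in OE/OE, was higher in 5 of 7 pairs by 0.18 on the log2 scale (SE 0.12), and without pair 4 it was called. Fzd4, a receptor also of the non-Wnt ligand norrin, had 926 to 1867 (median 1679.8) normalized counts in WT and 746 to 1955 (median 1491) in OE/OE and a log2 fold change of -0.033 (SE 0.091). Fzd1, Fzd2, Fzd3, Fzd6 and Fzd8 lay between 0.041 and 0.12, within 1 standard error of 0. The co-receptors did not pass the test either. Lrp5 had 8684 to 17211 (median 11049) normalized counts in WT and 5958 to 18559 (median 9876) in OE/OE and a log2 fold change of -0.013 (SE 0.12), and Lrp6 had one of 0.067 (SE 0.088).

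The R-spondin arm had no called gene. The receptors Lgr4, Lgr5 and Lgr6 had log2 fold changes of 0.10, 0.15 and 0.21, with standard errors of 0.13, 0.16 and 0.16. Lgr5 was called higher without pairs 1 and 4 together, at 0.37. Lgr6, a receptor known from luminal and myoepithelial progenitors, had 1945 to 2876 (median 2247) normalized counts in WT and 1710.4 to 3689 (median 3379) in OE/OE. Lgr4, the highest of the 3 per kb, had 1964 to 3029 (median 2182) normalized counts in WT and 1548 to 3289 (median 2581) in OE/OE. In both genes pair 1 was the one most strongly against the others, at -0.70 and -0.65 on the log2 scale, and without it both were called higher, at 0.36 and 0.23. Rspo3 had 4.07 to 29.0 (median 15.5) normalized counts in WT and 3.84 to 24.5 (median 12.5) in OE/OE, and a difference was not detectable at this depth (log2 fold change -0.11, SE 0.32).

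The 5 secreted inhibitors among the members all had log2 fold changes below 0, and none was called. Inhibitors outside the member list did not all share this direction. Of the 7 further secreted or membrane inhibitors measured, 5 lay above 0 and 2 below. The 2 below were Sfrp5, a further SFRP gene (-0.25, SE 0.38), and Frzb (-0.12, SE 0.32). Sfrp4, a frizzled decoy, had 144 to 412 (median 305) normalized counts in WT and 49.0 to 541 (median 210.4) in OE/OE. It was lower in 6 of 7 pairs and far higher in pair 1, where the log2 ratio was 1.69. The log2 fold change was -0.67 ± 0.44 (SE) (limma unadjusted p = 0.159), and without pair 1 it was called, at -1.06. Sfrp2 was lower in 5 of 7 pairs, at means of 505 ± 140.2 (SD) in WT mice and 408 ± 169.6 in OE/OE mice, n = 7 each, with a log2 fold change of -0.36 (SE 0.23). Dkk2, which binds LRP5 and LRP6, had 78.5 to 231 (median 122) normalized counts in WT and 15.3 to 199 (median 134) in OE/OE, its low end being the OE/OE mouse of pair 4 alone, and a log2 fold change of -0.39 (SE 0.38). Sfrp1 also reached its lowest value, 429.7, in that mouse. Dkk3, a divergent member of the DKK family and the inhibitor with the highest level per kb, had 1785 to 2604 (median 2175) normalized counts in WT and 1636 to 2606 (median 2182) in OE/OE and a log2 fold change of -0.066 (SE 0.12).

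Markers of fibroblasts and adipocytes differed in the same direction as these inhibitors, and their part in the values was not tested. The mean log2 level of the 15 fibroblast markers differed by -0.39 between OE/OE and WT and was lower in 5 of 7 pairs (two-sided exact sign-flip p = 0.0938, adjusted p over the 10 marker lists = 0.312). All 15 had log2 fold changes below 0 and 5 were called lower. The log2 ratio within a pair had the sign of the fibroblast ratio in 7 of 7 pairs for Wnt2 and Sfrp2, in 6 for Sfrp4 and Dkk2, and in 3 for Sfrp1 and Dkk3. The 12 adipocyte markers differed by -0.64 and were lower in 6 of 7 pairs (two-sided exact sign-flip p = 0.0625, adjusted p = 0.312). Pair 4 was the lowest, at -2.03. Of the 12 markers 9 were below 0, 5 of them called lower. Their summed normalized counts, 20756 to 42532 (median 30475) in WT and 15490.5 to 40138 (median 32833.5) in OE/OE, did not have a lower median in OE/OE. The pan-epithelial markers were higher in 6 of 7 pairs, by 0.14 (two-sided exact sign-flip p = 0.0469, adjusted p = 0.312). The 12 basal markers differed by -0.049 and were higher in 4 pairs. The 13 endothelial markers differed by -0.11 and were higher in 4 pairs, with pair 4 at -1.72. The 11 macrophage markers differed by -0.17 and were higher in 3 pairs. No defining marker of any list was at 0 in any library. In bulk RNA, fewer cells of a type and less RNA per cell cannot be told apart. With the fibroblast score as a covariate, Wnt2 and Sfrp4 had log2 fold changes of 0.28 each, and of the 4 called members Axin2 alone was called, at 0.51, in a fit that called 1.88% of all genes. The log2 fold changes of Fzd7, Tcf7l2 and Rnf43 in that fit were 0.31, 0.27 and 0.18, beside 0.32, 0.24 and 0.31 without the score. With the adipocyte score 11 members were called, 7 higher and 4 lower, and so were 16.5% of all genes, 9.36% higher and 7.11% lower. The 4 lower were Wnt10a, Fzd1, Nkd2 and Tcf7, and Fzd1, Nkd2, Tcf7 and Procr had turned direction.

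**Figure D3:**
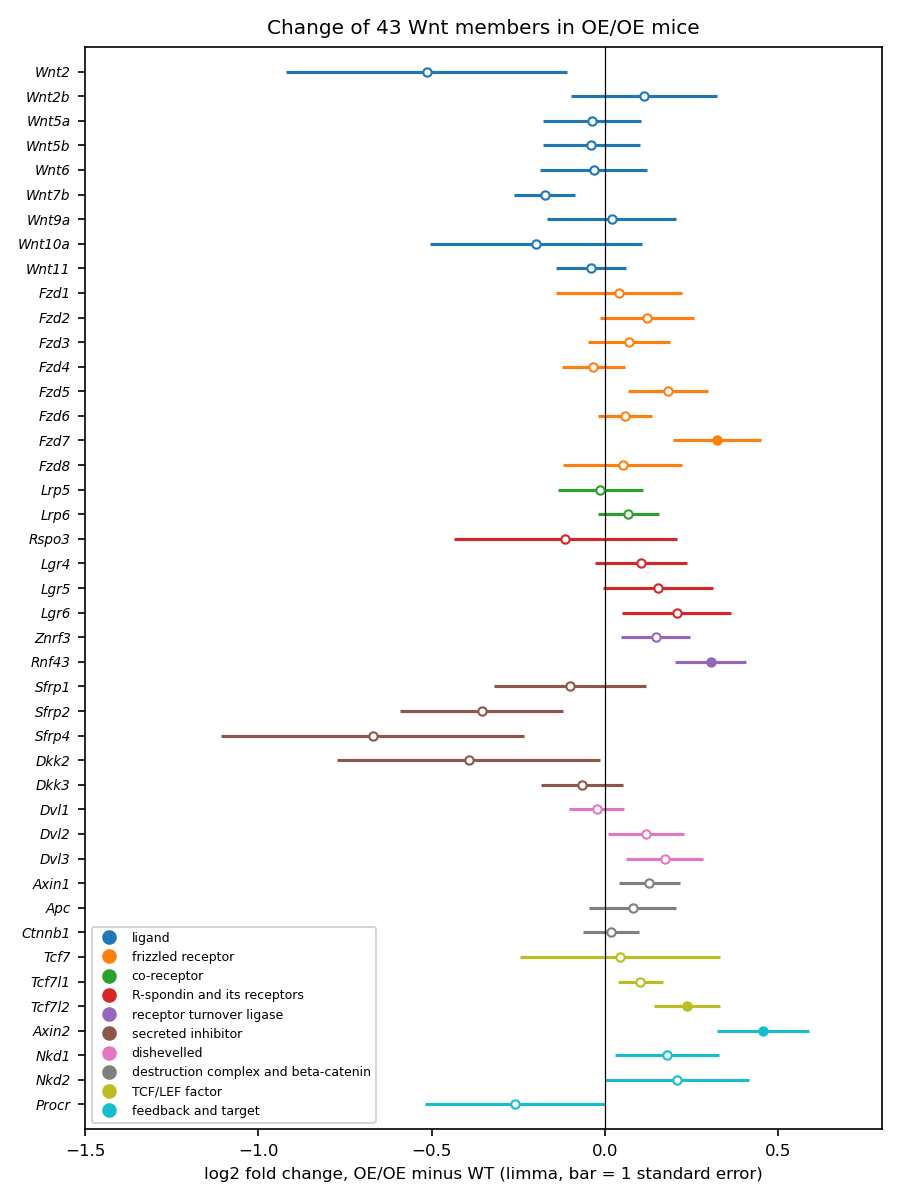
Log2 fold change of each member, OE/OE minus WT, from limma with the pair as a block, in role order with 1 standard error as a bar and filled points for the 4 called genes. The 5 secreted inhibitors lie below 0 with long bars, from -0.066 to -0.67, and Axin2 lies farthest above 0 at 0.46.

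Neither β-catenin, the scaffold Axin1 nor a dishevelled adaptor was called. Ctnnb1 had 30292 to 33109.5 (median 32236) normalized counts in WT and 30588 to 34608 (median 31940.1) in OE/OE, and a log2 fold change of 0.018 ± 0.080 (SE). Axin1 had 2921 to 4043 (median 3579) normalized counts in WT and 3277 to 4504 (median 3902) in OE/OE, was higher in 6 of 7 pairs by 0.13 (SE 0.088, limma unadjusted p = 0.174), and was called without pair 1, at 0.20. The dishevelled adaptors Dvl1, Dvl2 and Dvl3 had log2 fold changes of -0.023, 0.12 and 0.17. Dvl1 had 1641 to 3575 (median 2075) normalized counts in WT and 1731 to 3073 (median 2148) in OE/OE. Dvl3 had 1193 to 2212 (median 1376) normalized counts in WT and 1219 to 2881 (median 1811) in OE/OE. None of them was called over all 7 pairs, and Dvl3 was called higher without pair 1, at 0.25.

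Of the remaining targets and TCF genes, Tcf7, Nkd1, Nkd2 and Procr, none was called over all 7 pairs in limma. Tcf7, a TCF factor and target, had 351 to 848 (median 466) normalized counts in WT and 309 to 1442 (median 519.9) in OE/OE. Its log2 fold change of 0.043 had a standard error of 0.29, with pair 1 at -1.45 and pair 4 at 1.63. Nkd1 and Nkd2, feedback inhibitors that bind dishevelled, had log2 fold changes of 0.18 and 0.21 (standard errors 0.15 and 0.21) and were higher in 4 of 7 pairs each. Procr had 3783 to 7537 (median 5715) normalized counts in WT and 1848 to 8695 (median 5021) in OE/OE. It was lower in 6 of 7 pairs, with log2 ratios from -2.03 in pair 4 to -0.014 in pair 5, and higher in pair 1, at 0.74. The log2 fold change of -0.26 (SE 0.26) turned to 0.034 without pair 4.

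**Figure D4:**
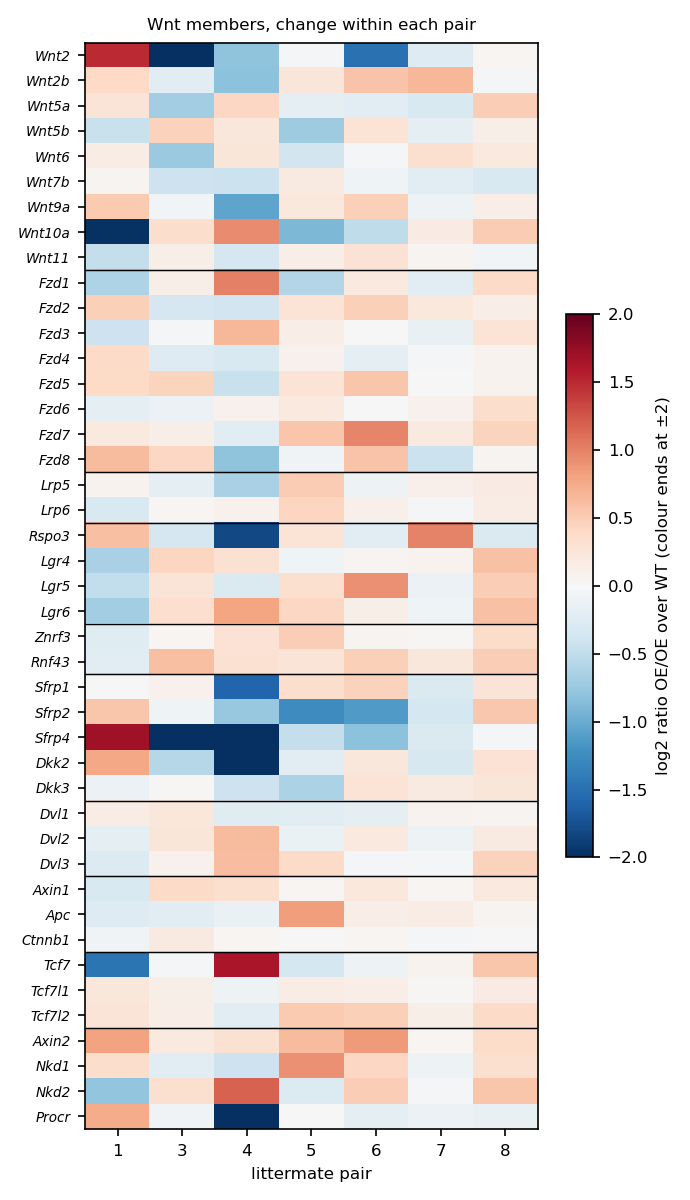
Log2 ratio of OE/OE over WT in each littermate pair for the 43 members, in role order with black lines between role groups, red for higher and blue for lower in OE/OE, and colour ends at ±2. Axin2 is red in every column, pair 1 opposes most pairs for Wnt2, Sfrp4, Lgr4 and Lgr6, and pair 4 holds the deepest blue for Dkk2 (-2.94) and Procr (-2.03).

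The spread of each member was divided between litter, genotype and rest. With 7 litters and only WT and OE/OE as genotypes, the litter takes the larger share even where neither has an effect. The shares of the members are therefore read beside those of all genes and not against each other. In sums of squares of the log2 level, the litter took a median of 60.7% over the members and 73.9% over all genes, and the genotype 3.72% and 1.43%. The litter took over 90% for Apc (96.7%), Lrp6 (93.6%), Fzd4 (92.9%), Fzd6 (92.1%), Wnt5b (91.2%) and Dvl1 (90.9%). Apc, the large scaffold of the destruction complex, had 4068 to 22926 (median 7010.5) normalized counts in WT and 3730.0 to 25844 (median 7654) in OE/OE. Both mice of pairs 5, 7 and 8 were above all others, and the log2 fold change between genotypes was 0.080 (SE 0.13). Fzd6 was lowest in both mice of pair 3, with 1301 in WT and 1202 in OE/OE, where the other 12 mice had 1880.3 to 2626. Wnt5b went the other way from Apc, with 742 to 1012 in the 6 mice of pairs 6, 7 and 8 and 1023 or more in the other 8.

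A gap between long and short genes moved with the litters. Over all genes with a mean of at least 50 normalized counts, the median log2 deviation of genes with over 8 kb of exon, less that of genes with up to 2 kb, ran from -1.11 in the OE/OE mouse of pair 4 to 1.30 in that of pair 5. It was 0.76 in the WT mouse of pair 5, 0.66 and 0.63 in WT and OE/OE of pair 7, and 0.028 and 0.50 in those of pair 8. All 6 members with over 8 kb of exon, Fzd3, Lrp5, Lrp6, Lgr5, Apc and Tcf7l2, had a higher mean in pairs 5, 7 and 8 than in the other 4 pairs. For Apc the means were 20179 and 5689 normalized counts, and for Tcf7l2 they were 1782 and 1507. Pairs 5 and 8 were also the ones in which the gap was wider in OE/OE than in WT by the most. With this gap as a covariate Axin2, Rnf43 and Tcf7l2 were called, at log2 fold changes of 0.45, 0.29 and 0.18, in a fit that called 4.06% of all genes. What the litters differed in was not tested.

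**Figure D5:**
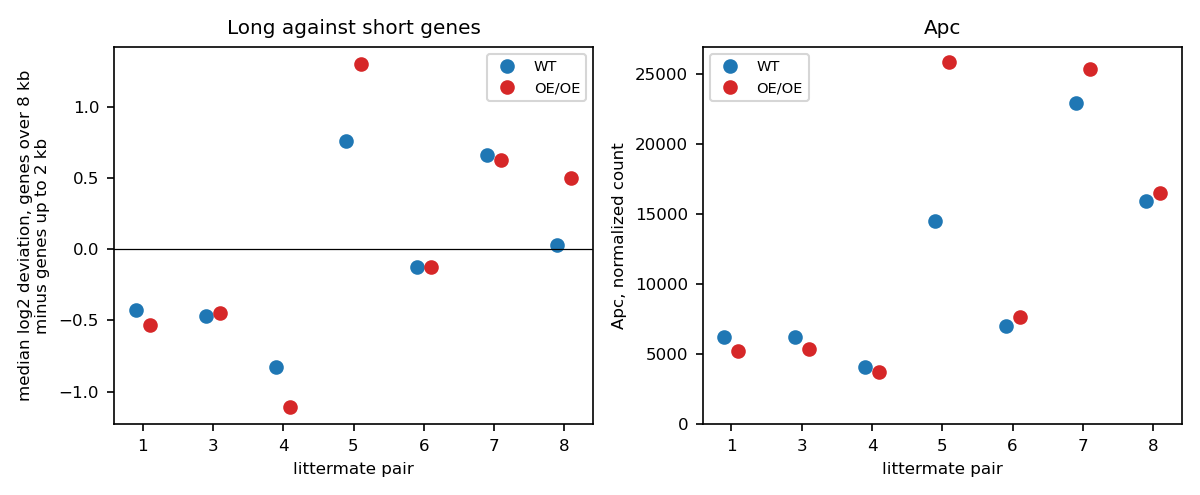
Left, median log2 deviation of genes with over 8 kb of exon less that of genes with up to 2 kb, and right, Apc in normalized counts, for the WT (blue) and OE/OE (red) mouse of each littermate pair. Pairs 5 and 7 are high in both panels, and in pair 8 Apc is high in both mice while the gap is 0.028 in WT.

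Of 78 further genes of the pathway 62 were in the table, and 2 of them were called, both higher in OE/OE (3.23%, against 3.81% of all genes). Wif1, a secreted inhibitor that binds Wnt proteins directly, had 422 to 775 (median 698) normalized counts in WT and 621 to 2397 (median 848) in OE/OE. It was higher in 6 of 7 pairs with a log2 fold change of 0.72 (SE 0.17, limma unadjusted p = 0.00220, adjusted p = 1.00), the reverse of the direction of the 5 SFRP and DKK genes, and pair 3 held the highest OE/OE mouse. Csnk1e, a kinase that phosphorylates dishevelled, was higher in 7 of 7 pairs, at means of 4048 ± 419.7 (SD) in WT mice and 4573 ± 599 in OE/OE mice, n = 7 each, with a log2 fold change of 0.17 (SE 0.061, limma unadjusted p = 0.0196, adjusted p = 1.00). The Csnk1e call was lost with the adipocyte, fibroblast or pan-epithelial score as a covariate, without the pair as a block and with quantile normalization. That of Wif1 was lost with the pan-epithelial score and in the paired test on untransformed counts.

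In limma none of the other 60 pathway genes was called. Wnt4, the ligand that acts below progesterone in side branching and the highest of all the ligands measured at 1039 per kb, had 3078 to 7082 (median 4453) normalized counts in WT and 3507 to 4704 (median 4129) in OE/OE and a log2 fold change of -0.10 (SE 0.15). Porcn, which attaches the lipid, had a log2 fold change of 0.21 (SE 0.11), and Wls, which carries ligands to the surface, one of -0.091 (SE 0.11). For the receptor Ror2, the kinase Gsk3b, and the targets Myc and Ccnd1 the log2 fold changes were -0.045, 0.11, 0.0014 and -0.077, with standard errors of 0.12, 0.088, 0.14 and 0.13. Myc had 10105 to 15279.9 (median 12129) normalized counts in WT and 7819 to 15711 (median 12959) in OE/OE, with its lowest value in the OE/OE mouse of pair 4. Of the 8 further target genes measured 6 lay above 0, and none was called in limma. Ephb3, an ephrin receptor named here after its values were seen, lay at the threshold, with 3399 to 5806 (median 5092) normalized counts in WT and 4724 to 7529 (median 5097) in OE/OE and a log2 fold change of 0.24 (SE 0.11, limma unadjusted p = 0.0504), and was higher in 5 of 7 pairs. DESeq2 and edgeR with TMM called it beside Wif1 and Csnk1e (unadjusted p = 0.0494 and 0.0469), edgeR with the deposited size factors did not, and limma called it without pair 4, at 0.32.

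Some values may be affected by a neighbouring gene, and in which direction was not tested. Exons of Axin2, Ctnnb1, Dvl1, Dvl2, Fzd5, Fzd6, Tcf7l1, Wnt5a, Wnt7b, Wnt11, Rspo3 and Sfrp2 overlap those of a gene on the other strand in the annotation. For Ctnnb1, Dvl1, Dvl2 and Wnt7b that gene was itself in the expression table, and for the others it was not. Whether the counting used strand is not given in the sources used here.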

How the data were processed

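Per the labels and the study's methods, polyA libraries were sequenced as paired 75-base reads, mapped to mm10 with TopHat2 2.0.10 and counted per GENCODE M21 gene with HTSeq 0.6.0. The authors kept genes with at least 10 fragments in 7 samples and deposited the counts divided by DESeq 1.18.0 size factors, a linear signal that is never negative. Every deposited value was a whole multiple of 1 fragment (tolerance 0.01; 100% of values), which gave back the fragments, 20125106 to 41835978 per library, so genes with few counts are the least precise. Counts of a gene depend on its exon length, hence levels per kb. The study's paired test per gene was replaced by limma 3.58.1 (R 4.3.3, eBayes with trend) on log2(value + 1), with the pair as a block, over all 16124 genes. Fold changes are on that scale and understate those of low genes. Benjamini-Hochberg adjustment was over all genes. Exact two-sided sign flips used 128 patterns. The test was tried on simulated counts.

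The pairs are littermates by the study's methods, and mice of 1 pair deviated together (correlation of deviations across genes 0.171 to 0.748, median 0.522; median -0.151 between other mice). P-values cover the spread between these mice. Alternatives were a pseudocount of 0.1 or 10, a minimum mean of 50, limma without trend, no block, the paired test on counts, edgeR 4.0.16 and DESeq2 1.42.0 on recovered fragments, median centring or quantile normalization of the log2 values, each pair left out and a marker score as covariate. Leaving out pairs 1 and 4 together and the exon length gap as a covariate were chosen after seeing the data. The members and lists were chosen with earlier results of these data known. Values are given in full for called members, members changed the same way in all pairs, the highest member per kb of each role and the largest and smallest change in each role of 3 or more, and for called pathway genes plus Wnt4, Ror2, Wls, Porcn, Gsk3b, Ccnd1 and Myc. Other members given with their values, and Ephb3, were added after these were seen. No authors' fold changes or p-values were used.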

Additional observations from a re-analysis of the deposited data

Results flagged for a closer look

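A mouse was far from the rest of its group in 8 of 108 groups of 7 examined, when the gap to its nearest neighbour was set against the whole range of the group on the log2 scale. Chance gives such a gap in about 1 in 20 groups, or 5.40 here. In the OE/OE mice, pair 4 was low for Wnt9a (gap 0.683 of the range, log2 level 6.58 against 7.34 in the next mouse), for Fzd5 (0.661, 10.26 against 11.11) and for Dkk2 (0.569, 4.03 against 6.08). The same mouse was high for Tcf7 (0.608, 10.49 against 9.15) and low for the endothelial markers (0.622, 10.30 against 11.80). Fzd6 was low in pair 3 in both genotypes, with gaps of 0.645 in WT (10.35 against 10.88) and 0.648 in OE/OE (10.23 against 10.96). The lymphocyte markers were high in the WT mouse of pair 1 (0.640, 7.62 against 5.61). Whether these values come from the animals, the cell preparation or the libraries was not tested.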

How the results depend on the processing

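Axin2 kept its direction under all 24 alternatives and was called in 23 of them, with log2 fold changes from 0.38 to 0.55. Rnf43 was called in 20 (0.17 to 0.41), Tcf7l2 in 15 (0.18 to 0.34) and Fzd7 in 15 (0.21 to 0.46), and none of the 3 changed direction. Depth limits Rspo3, Wnt2b and Wnt2, whose counts are few.

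Without the replicate block, limma called 182 genes, 1 member (Axin2) and 1 other pathway gene (Wif1). The adipocyte score as a covariate gave 2656 genes, 11 members and 15 other pathway genes. The fibroblast score gave 303 genes and 1 member. The pan-epithelial score gave 232 genes, 1 other pathway gene and 0 members, where DESeq2 and edgeR without it called 4. Without pairs 1 and 4 there were 1805 genes, 10 members and 6 other pathway genes. The paired test on untransformed counts called 1 other pathway gene (Csnk1e), and Tcf7l1 in place of Fzd7. With each pair left out in turn the calls ran from 381 genes (without pair 6) to 1366 (without pair 4), from 2 members (without pair 6 or 8) to 9 (without pair 1) and from 2 to 5 other pathway genes. The causes were not tested.

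Leaving out a pair moved the marker list differences to 0.12 to 0.19 for pan-epithelial, -0.083 to 0.033 for basal, -0.85 to -0.41 for adipocyte, -0.28 to 0.16 for endothelial, -0.33 to 0.12 for lymphocyte and -0.77 to 0.46 for proliferation.

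Some uncalled genes turned direction, and of those listed here Tcf7 and Procr were called in the new direction, both with the adipocyte score. With the adipocyte score these were Wnt2 (0.022), Fzd4 (0.13), Lrp5 (0.18), Rspo3 (0.52), Lgr4 (-0.14), Lgr6 (-0.15), Sfrp4 (0.20), Dvl1 (0.059), Dvl3 (-0.037), Axin1 (-0.026), Ctnnb1 (-0.011), Tcf7 (-0.68), Procr (0.37), Wnt4 (0.18) and Wls (0.051). With the fibroblast score they were Wnt2 (0.28), Fzd4 (0.12), Lrp5 (0.053), Rspo3 (0.15), Lgr4 (-0.013), Lgr6 (-0.011), Sfrp4 (0.28), Dkk3 (0.028), Dvl1 (0.051), Ctnnb1 (-0.023), Tcf7 (-0.27), Procr (0.068), Wnt4 (0.0035) and Wls (0.070). With the pan-epithelial score they were Wnt5b (0.047), Fzd4 (0.015), Lrp5 (0.029), Dkk3 (0.16), Dvl1 (0.031), Ctnnb1 (-0.0019), Ror2 (0.034) and Myc (-0.095). Others turned with the paired test on counts (Wnt5b 0.017, Lrp5 0.047), without pairs 1 and 4 (Lrp5 0.099, Rspo3 0.081, Dkk3 0.014), with the basal score (Wnt5b 0.015, Myc -0.036), with the length gap (Wnt5b 0.010, Myc -0.011), with median centring (Lrp5 0.0059) and with quantile normalization (Rspo3 0.073, Ctnnb1 -0.032, Myc -0.050). With each pair left out, the ranges that crossed 0 were -0.12 to 0.072 for Wnt5b, -0.10 to 0.013 for Fzd4, -0.099 to 0.093 for Lrp5, -0.30 to 0.17 for Rspo3, -0.12 to 0.029 for Dkk3, -0.066 to 0.014 for Dvl1, -0.0079 to 0.034 for Ctnnb1, -0.22 to 0.29 for Tcf7, -0.43 to 0.034 for Procr, -0.22 to 0.0080 for Wnt4, -0.12 to 0.037 for Ror2, -0.16 to 0.010 for Wls and -0.077 to 0.14 for Myc.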

Other observations

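The OE/OE mouse of pair 4 held the extremes of many members. It had the lowest value of the 14 mice for 15 of the 43 members and the highest for 5. Wnt10a, Tcf7 and Nkd2 were among its highest, with 2000 normalized counts of Wnt10a and 1442 of Tcf7, and Procr, Dkk2 and Fzd5 among its lowest, with 1848 of Procr. Its gap between long and short genes was also the lowest, at -1.11. At the other end of that gap, at 1.30, the OE/OE mouse of pair 5 had the highest value for 10 members and the lowest for 1. These genes were picked after their values were seen, and no test was run on the counts.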
